A study of Apis mellifera with 6 samples.

Results

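Queen and worker honey bees (Apis mellifera) are females that develop from like eggs, and the diet of the larva sets which caste emerges. The queen lays the eggs of the colony, while workers nurse, build and forage. Accessible chromatin in the newly emerged brain was compared between the castes by ATAC-seq, in which the transposase Tn5 inserts sequencing adapters into DNA left free of nucleosomes. Such open sites often mark promoters and enhancers, where transcription factors bind. The comparison used 4 of the 6 libraries of the series, queen replicates 1 and 2 and worker replicates 1 and 2. Pools of 5 central brains without optic lobes, taken from newly eclosed bees of the same mother queen, gave 1 library each, and replicate error is therefore that between pools. A peak list of nucleosome-free fragments (up to 100 bp) was available for each library, and the lists hold no reads outside peaks. The other 2 libraries, from haploid drone brains, entered only as a separate readout of the same sites.

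Peaks of the 4 lists that overlapped by at least 1 bp were joined into 51332 sites, of 60136 sites in all 6 lists. The queen lists held 30538 and 28026 peaks, against 36529 and 39158 in the worker lists. The peak caller's fold enrichment is the number of fragments stacked at the summit plus 1, divided by the local background plus 1. Fold enrichment was therefore tested by its rank in a list, given as a percentile in which 100 is the strongest, and its values are printed as a description. The commonest background was 1.47 and 1.24 fragments in queen libraries, against 1.06 and 1.04 in worker libraries. The weakest peaks had 7 fragments at the summit in both queen lists and 6 in both worker lists. All 134251 peaks carried 1 flow cell and lane label, so no split between sequencing runs was visible in the peak names. The effect of list length was tested by lists of equal length, and the part of the local background was not tested.

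Open sites at genes that define the tissue were checked first. Shared sites, called in all 4 lists, lay in or within 2 kb of all 4 neuron genes that could be matched. There were 21 at Cac, which encodes a presynaptic calcium channel, 12 at the sodium channel gene Para, 8 at brp, which encodes a scaffold of the active zone, and 1 at Syt1, the calcium sensor of synaptic vesicles. The glial glutamate transporter gene Eaat-2 had 2 shared sites. Of genes taken here as markers of other tissues, the 9 royal jelly protein genes Mrjp1 to Mrjp9 (hypopharyngeal gland) had 3 shared sites. Of these, 1 was at Mrjp4 and 2 were at Mrjp8, and whether every member marks the gland was not tested. Among 4 opsin genes only Blop had shared sites, 2 in number, and the 5 storage and yolk protein genes of the fat body had none. The muscle gene TpnT had 3. These counts were not scaled to gene length. Cac spans 138178 bp, Para 61563 bp, brp 53863 bp and Syt1 24492 bp. Among the others, TpnT spans 15473 bp, Mrjp8 3111 bp and Blop 2591 bp. The counts therefore do not rank the tissues. No shared site at any of these marker genes differed between the castes past the threshold (lowest adjusted p = 0.210, limma with Benjamini-Hochberg adjustment, at Mrjp8). An open site is not a measure of transcription, and the mix of cells in the pools cannot be told apart from accessibility per cell.

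The first question was how far the castes share their open sites. The commonest pattern was a call in all 4 lists, at 19389 sites (37.8%). Only 842 sites, 1.64% of all, were called in both queen lists and neither worker list, and are called queen-private here. Worker-private sites, called in both worker lists and neither queen list, numbered 4541, or 8.85% of all sites. A further 4872 sites were called in both worker lists and 1 queen list, and 1735 in both queen lists and 1 worker list. These counts are set by the calls themselves and carry no test, since 2 libraries against 2 cannot give an exact permutation p below 0.33.

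The excess of worker-private sites was smaller in lists of equal length. With each list reduced to its 28026 strongest peaks, 1737 sites were queen-private (4.12% of 42165) and 2013 were worker-private (4.77%). The queen set of equal length held 717 of the 842 queen-private sites (85.2%). It gained 562 sites that had had 1 worker call in the full lists and 458 that had had 2. Of the 4541 worker-private sites, 1899 (41.8%) stayed worker-private, 1591 kept 1 worker call and 1051 lost both. The counts also moved when a library was left out, since 1 call then stood for a caste. They ran from 1544 to 3755 for queens and from 6486 to 11320 for workers.

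**Figure D1:**
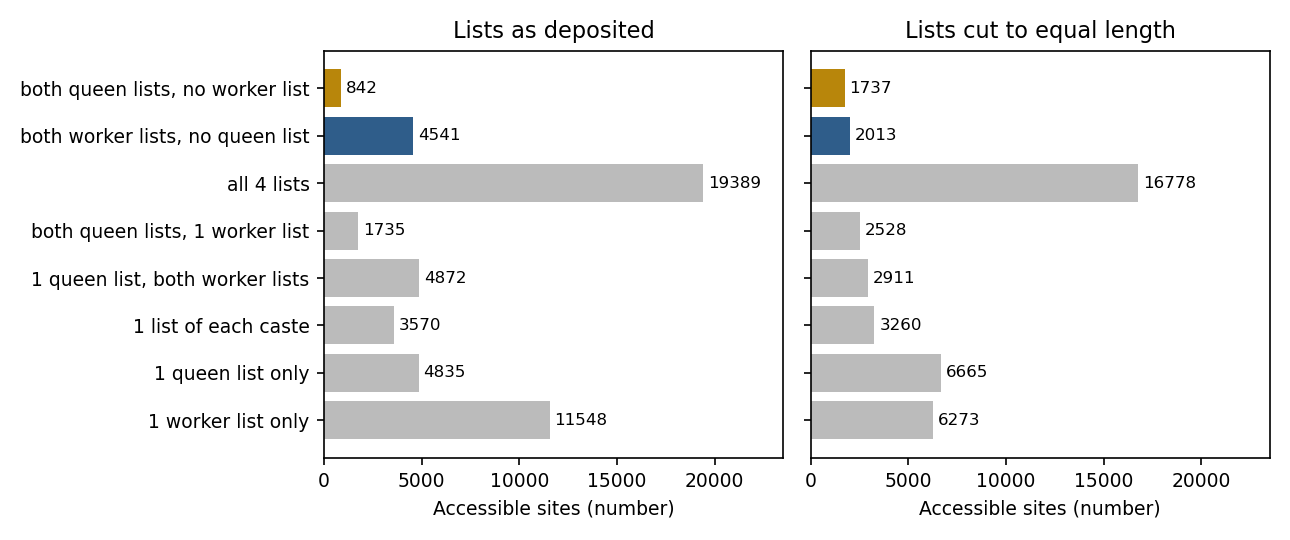
Number of sites (x axis) by the lists that called them (y axis), for the full lists (left) and for lists of 28026 peaks each (right). Queen-private sites numbered 842 and worker-private sites 4541 in the full lists, against 1737 and 2013 at equal length.

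Private sites were weak and narrow beside shared ones in the same library. The calls that set the classes come from the same lists as these values, so the contrast is a description. The median queen-private site stood at percentile 30.2 and 28.8 of the queen lists, and the median worker-private site at percentile 30.5 and 32.7 of the worker lists. Shared sites had medians of 66.3 and 63.9 in queen lists, against 71.1 and 73.4 in worker lists. In fragments, the median summit of a queen-private site held 15 and 13 over a local background of 2.08 and 1.76. Worker-private summits held 12 and 13 over 1.43 and 1.40. Few private sites were strong: 10 and 7 queen-private peaks stood above percentile 90 of their lists, as did 25 and 18 worker-private peaks.

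Private sites of both castes were found near gene ends at a lower share than shared sites. The classes were not matched on peak strength. Shared peaks had their summits within 200 bp of a gene end in 22.2% and 22.3% of cases in queen libraries and in 22.3% in both worker libraries. For private sites the share was 7.41% ± 0.305 in queens and 6.58% ± 0.157 in workers (SD, n = 2 each). The order of the castes turned round at equal list length, where it was 6.47% in queens and 8.81% in workers. The gene table gives gene bodies only, so exons, introns and untranslated regions were not told apart. Queen-private summits were inside gene bodies in 66.8% ± 0.203 of cases, against 82.3% ± 0.126 of worker-private summits (SD, n = 2 each). Peaks at shared sites were 169 ± 5.66 bp wide in queens and 187 ± 4.24 bp in workers (medians per library, SD, n = 2 each). Private peaks were 97 ± 1.41 bp wide in queens and 108.5 ± 2.12 bp in workers. In each of these 4 comparisons the libraries of the castes did not overlap, and the exact permutation test gave p = 0.33, the smallest value that 2 libraries against 2 allow. For private values, both libraries of a caste were read at the same sites, and the castes had different sites. The SD there covers only differences of summit or width at fixed sites. The lack of overlap and the permutation p there do not compare the castes at like sites.

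**Figure D2:**
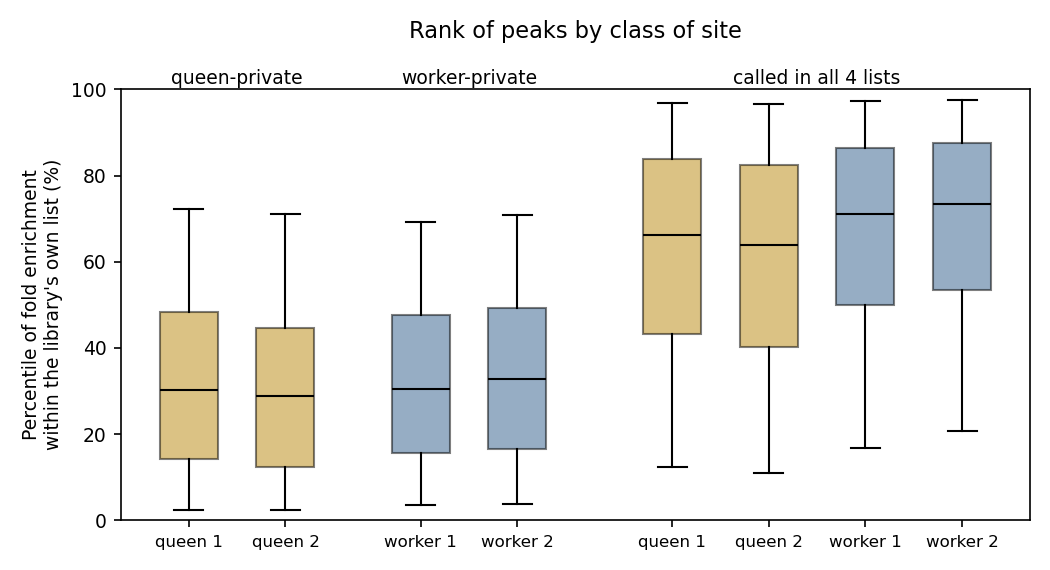
Percentile of fold enrichment within each library's own list (y axis) for queen-private, worker-private and shared sites. Boxes span the quartiles with the median as a line, and whiskers run from the 5th to the 95th percentile of the peaks in that class. Medians of private sites lay between 28.8 and 32.7, below all medians of shared sites (63.9 to 73.4). The classes were set by calls in the same lists, so the contrast is a description.

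The drone libraries, whose calls the classes did not use, were read at the same sites. Of shared sites, 85.4% were called in both drone lists. Of queen-private sites 22.2% were called in both drone lists and 55.2% in neither, and of worker-private sites 28.3% were called in both and 46.4% in neither. At equal length the shares called in neither were 53.8% and 52.9%. Shared and private sites were not matched on peak strength here either. Many private sites also had a neighbour in the other caste: a worker peak lay within 500 bp of 240 queen-private sites (28.5%), and a queen peak lay within 500 bp of 941 worker-private sites (20.7%).

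Next, shared sites were tested for a difference in rank between the castes. Ranks were taken among the same sites in every list, so a shift of all shared sites between the castes could not show. The median site moved by 8.94 percentile points between the caste means, against 9.88 between the queen replicates and 9.32 between the worker replicates, although a difference between means of 2 libraries varies less than one between single libraries. Both queen libraries ranked above both worker libraries at 4163 sites (21.5%), and both worker libraries above both queen libraries at 4077 (21.0%). Ranks were turned into normal scores and tested with limma, with Benjamini-Hochberg adjustment over all 19389 sites. At an adjusted p below 0.05, 16 sites (0.0825%) ranked higher in queens and 5 (0.0258%) higher in workers, and 2293 sites had an unadjusted p below 0.05. Of these 21 sites, 14 queen and 2 worker sites were on the 16 chromosomes, and 2 queen and 3 worker sites were on unplaced scaffolds.

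The number of calls changed when a library was left out and with the ranking. A fit without 1 library takes its spread from the pair of the other caste alone, and the lone library is assumed to vary like that pair. Without worker replicate 2, 17 sites were called higher in queens and none in workers, although 785 had an unadjusted p below 0.05 in the worker direction. Without queen replicate 1, 51 sites were called higher in queens and 103 in workers, and without queen replicate 2 the counts were 68 and 120. Without worker replicate 1 they were 31 and 4. Ranking by −log10 q in place of fold gave 75 sites higher in queens and 11 in workers. Ranking within the whole list gave 9 and 6, with a median score difference over all sites, queens minus workers, of −0.18.

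**Figure D3:**
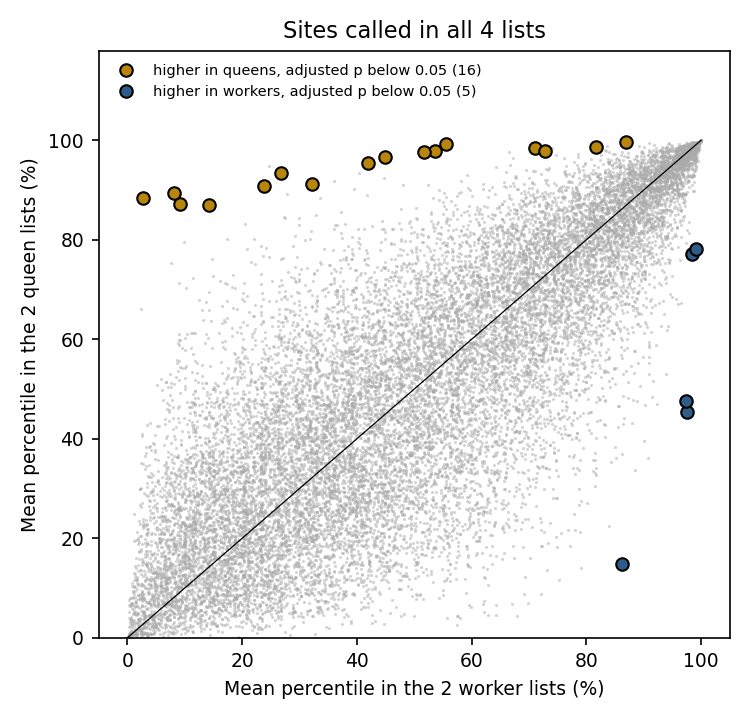
Mean percentile in the 2 queen lists (y axis) against the mean percentile in the 2 worker lists (x axis) for the 19389 shared sites (grey). Large points are the 16 sites called higher in queens and the 5 called higher in workers, and the line marks equal rank.

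The widest gap in favour of queens was on LG2 (positions 4006631 to 4006819 of Amel HAv3.1), inside the protein-coding gene LOC724736. This site stood at percentile 90.7 and 86.0 of the shared sites in queen libraries, against 3.45 and 2.06 in worker libraries. The summit held 67 and 47 fragments in queens, over a local background of 4.60 and 3.36. In workers it held 10 and 9, over 1.70 and 1.55. The site was thus among the stronger shared sites in both queen pools and among the weakest in both worker pools (normal score difference 3.13 ± 0.41 SE, limma adjusted p = 0.0111). A like pattern was found on LG15 (6755951 to 6756190), inside LOC552844. Its percentiles were 92.9 and 86.0 in queen libraries, against 11.6 and 4.72 in worker libraries (limma adjusted p = 0.0156). Neither the LG2 nor the LG15 site could be read at equal list length or at a −log10 q of at least 5. The check by list length therefore does not cover them.

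A pair of neighbouring sites on LG10 was higher in queens. The stronger one (9662610 to 9662959) had a fold enrichment of 21.1 and 18.4 in queen libraries, against 8.72 and 8.80 in worker libraries. Its summit held 70 and 52 fragments over a local background of 2.36 and 1.88 in queens, against 17 and 17 over 1.06 and 1.04 in workers. It gave the smallest p of all shared sites (adjusted p = 0.00274) and kept its call under all 14 alternative settings that could be read there. The weaker one (9663909 to 9664129) stood at percentile 83.8 and 90.7 in queens, against 5.33 and 12.9 in workers (limma adjusted p = 0.0233). This weaker site could not be read at equal list length. Both were intergenic, 68787 and 70086 bp from the nearest gene, the lncRNA gene LOC102656106. Queen and worker libraries did not overlap at either of the pair, as in the queen direction at 21.5% of all shared sites.

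At the other 6 named sites that ranked higher in queens, the queen libraries stood between percentile 88.0 and 98.9. They lay near LOC413382 (LG9), inside LOC100577798 (LG4), inside LOC410674 (LG1), 781 bp from the lncRNA gene LOC102654106 (LG11), 662 bp from LOC724655 (LG6) and 18811 bp from the lncRNA gene LOC100576913 (LG11). Their adjusted p ranged from 0.0159 to 0.0454. The call inside LOC410674 was the least secure. Its worker libraries stood at percentile 76.5 and 30.9, and it passed under 8 of 14 alternatives. Drone lists called 9 of the 10 named queen sites, at percentiles between 62.2 and 98.8 of their own lists. The exception was the LG9 site. They also called all 10 named worker sites described next in at least 1 list and 9 of them in both, at percentiles between 14.1 and 98.8. Of all shared sites, 85.4% were called in both drone lists and 6.08% in neither, so these counts are near the share of all shared sites.

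On the worker side, the widest called gap on a chromosome was on LG11 (6308185 to 6308404), inside LOC102653967. The site stood at percentile 18.7 and 11.0 in queen libraries, against 85.1 and 87.4 in worker libraries, with 11 and 9 fragments at the summit in queens and 28 and 29 in workers. The score difference was −2.15 ± 0.37 SE (adjusted p = 0.0402), and the call was lost without worker replicate 1 (difference −2.16, adjusted p = 0.170) or worker replicate 2 (−2.08, adjusted p = 0.299), while the difference stayed about as large. The other called site was on LG13 (4008371 to 4008523), 20567 bp from LOC102655078. Its percentiles were 71.9 and 82.2 in queens, against 97.9 and 98.9 in workers (adjusted p = 0.0329). Its difference was −1.41, and it also lost its call without worker replicate 1 (−1.52) or worker replicate 2 (−1.27). Ranked by −log10 q, its difference was smaller, at −0.87, and it was not called (limma adjusted p = 0.136).

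The 8 remaining named sites with higher worker ranks did not pass the threshold (adjusted p from 0.0842 to 0.102, limma). The libraries of the castes did not overlap at any of them. The choice by smallest p favours such sites, and both worker libraries ranked above both queen libraries at 21.0% of all shared sites. One spans the end of LOC409132 on LG3 (4406818 to 4406993), within 2 kb of Nmdar1, which encodes a subunit of the NMDA glutamate receptor used in learning. It stood at percentile 64.1 and 42.1 in queens, against 94.9 and 92.9 in workers (adjusted p = 0.0850). Another lay inside LOC413503 on LG3 (12982052 to 12982442), at percentile 35.5 and 32.0 in queens, against 86.1 and 90.8 in workers (adjusted p = 0.0842). LOC413503 recurs below among genes with most worker-private sites.

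**Figure D4:**
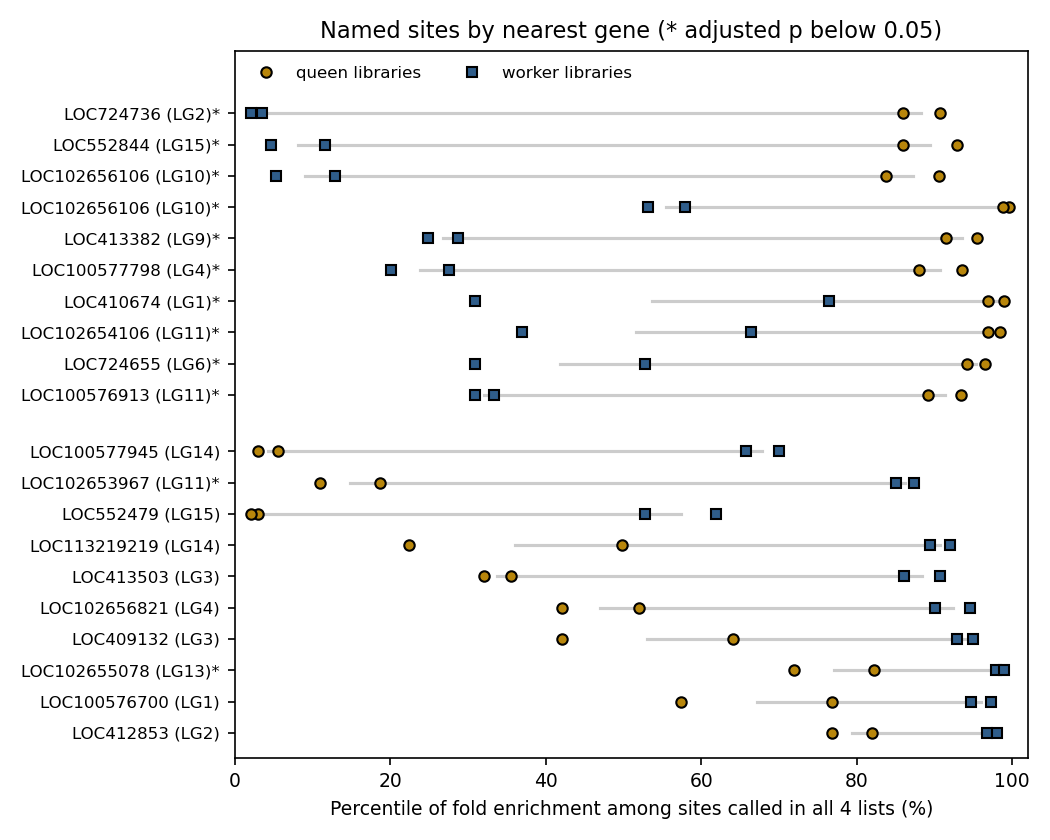
Percentile of fold enrichment among shared sites (x axis) in each queen library (circles) and worker library (squares) at the 20 named shared sites, labelled by the nearest gene and linkage group. An asterisk marks an adjusted p below 0.05 (limma), which all 10 upper sites and 2 of the 10 lower sites had.

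Which private sites were strongest was examined next, by mean rank in the lists that called them. These sites were chosen by those ranks, so their values are a description. The strongest queen-private site was on LG3 (2707058 to 2707138), inside the lncRNA gene LOC102654788, with a fold enrichment of 17.7 and 17.9. Both drone lists called it, and a worker peak lay within 500 bp. The next 3 all lay within 1 stretch of LG9, and the other 2 were on LG10 (19811 to 19967) and LG14 (3154274 to 3154442). The strongest worker-private site was on LG8 (10556109 to 10556177), inside LOC100577283. It had a fold enrichment of 36.9 and 38.3 and 90 and 87 fragments at the summit, and no queen or drone list called it. The other 5 leading worker-private sites had a fold enrichment between 16.5 and 23.3. They lay inside LOC413503 (LG3), LOC408857 (LG5), LOC413215 (LG8) and LOC100578332 (LG11), and 15669 bp from LOC726470 (LG10). None was called in a drone list, and all 12 leading sites kept their class at equal list length.

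Of 2200 windows of 100 kb that held a site, the one around the LG9 stretch (2000001 to 2100000) held 10 queen-private sites, all between positions 2038293 and 2063921, and 2 worker-private sites. At equal list length 9 sites of the window were queen-private, and no drone list called any of the 10. The first strong one (2040728 to 2040895) had a fold enrichment of 15.5 and 17.02 with 63 and 54 fragments at the summit, and lay 7046 bp from LOC100576170. A neighbour (2041528 to 2041660) had 13.4 and 11.3, and another (2061382 to 2061499), 10691 bp from LOC413382, had 12.4 and 15.8. These 3 stood above percentile 90 of both queen lists. The others ranged in fold enrichment from 3.33 to 11.7. The shared LG9 site named above (2062789 to 2063120) lies in the same stretch. It had a fold enrichment of 14.0 and 12.6 in queens, against 6.30 and 6.36 in workers, and 101 and 79 fragments at the summit in queens, against 12 and 12 in workers (adjusted p = 0.0159). Local background at this shared site was 6.28 and 5.34 fragments in queens, against 1.06 and 1.04 in workers, and its median at the queen-private sites of the window was 3.65 and 2.96. Coverage between peaks was not analysed here, and the part of the background was not tested.

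The window with most queen-private sites was the first 100 kb of LG3, with 14 of 41 sites queen-private, none worker-private and 2 shared. These were weak peaks on a high background: the median fold was 3.34 and 3.59 over a local background of 9.53 and 7.22. At equal list length 7 of 28 sites there were queen-private. After these windows on LG3 and LG9 came one on LG10 (1100001 to 1200000), with 5 of 21. Worker-private sites, 4501 on the chromosomes against 695 queen-private sites, fell in more windows. Their fullest windows held 11 sites of 48 on LG11 (15200001 to 15300000), 10 of 46 on LG2 (14900001 to 15000000, which holds the microRNA gene Mir989) and 10 of 34 on LG8 (10400001 to 10500000). At equal list length these windows kept 2, 5 and 2. The 695 queen-private sites fell in 546 windows, of which 20 held 3 or more. The 4501 worker-private sites fell in 1693, of which 752 did, and these window counts were not scaled to the totals.

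The private share was then compared across the 16 chromosomes. Queen-private sites made up 1.38% of sites, from 0.846% on LG8 and 0.899% on LG15 to 1.90% on LG10 and 1.93% on LG16 (SD over chromosomes 0.360). The 95% Wilson intervals of LG8, LG10 and LG16 excluded the overall share. Worker-private sites made up 8.94%, from 7.52% on LG16 and 7.77% on LG13 to 9.81% on LG2 and 10.1% on LG15 (SD 0.704), and the intervals of LG13 and LG16 excluded the overall share. At equal length the queen share ran from 2.87% on LG15 to 4.81% on LG16, and the worker share from 3.75% on LG13 to 5.84% on LG14. LG16, lowest for workers in the full lists, then had a worker share of 4.81%, against 4.83% over all 16. The intervals cover counting error only, and sites on 1 chromosome are not independent.

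Unplaced scaffolds differed from the chromosomes far more than chromosomes differed from each other. They held 986 sites, of which 147 were queen-private (14.9%, 95% Wilson interval 12.8 to 17.3) and 40 worker-private (4.06%, 2.99 to 5.48). They thus held 17.5% of all queen-private sites and 0.881% of all worker-private sites. The queen value was 7.89% at equal length and 8.58% to 11.98% with 1 library left out. At equal length 137 of 883 sites there were queen-private and 22 worker-private. The sites were spread over 58 scaffolds of 130, and 1 scaffold alone had 20 queen-private sites of 32 with none shared. Queen lists had 793 and 705 peaks on these scaffolds in all, against 528 and 512 in worker lists, although the worker lists were longer. Local background at queen-private sites was 3.82 and 2.68 on the scaffolds, against 1.92 and 1.60 on the chromosomes. Of the 311 shared sites on scaffolds, both queen libraries ranked above both worker libraries at 106 (34.1%) and below both at 69 (22.2%). Over all shared sites these shares were 21.5% and 21.0%, so the worker side was near its share. The part of the higher local background in the queen-private share was not tested.

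**Figure D5:**
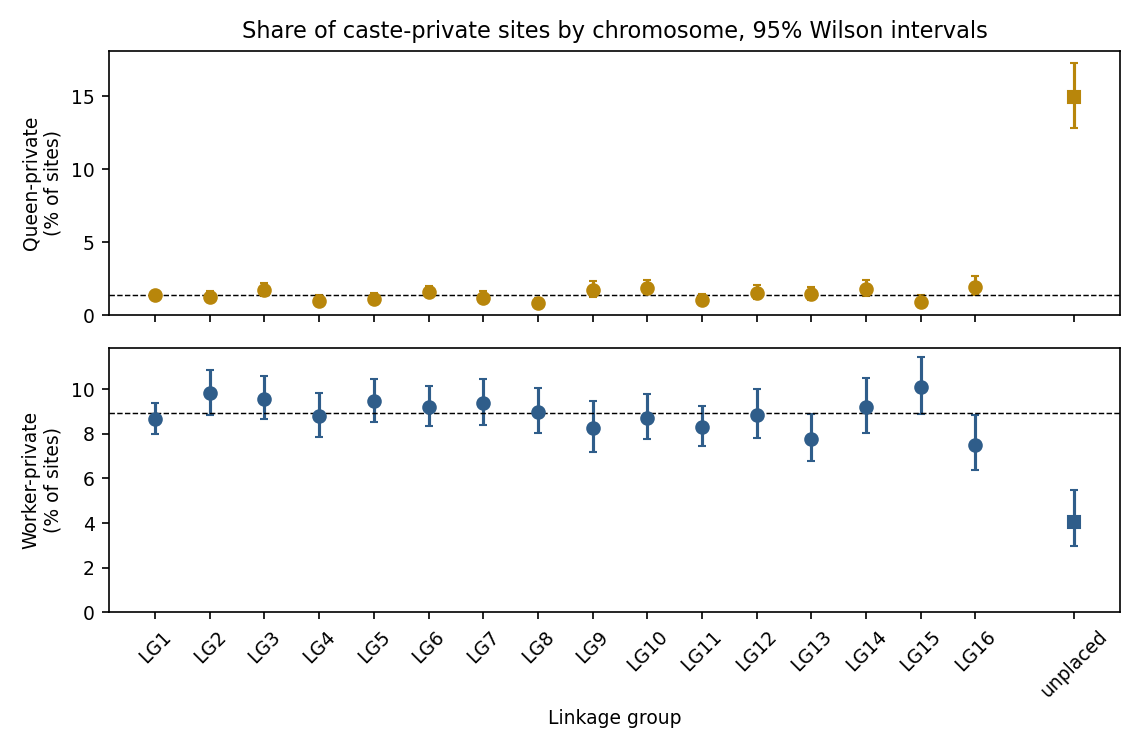
Share of sites that were queen-private (top) and worker-private (bottom) on each linkage group and on unplaced scaffolds, with 95% Wilson intervals. Dashed lines mark the share over the 16 chromosomes (1.38% and 8.94%). The scaffolds stand at 14.9% for queens and 4.06% for workers.

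Private sites were then assigned to genes, taking each gene with 2 kb of flank at both ends. Of 12255 genes with a position on the chromosomes, 647 (5.28%) had a queen-private site and 2898 (23.6%) a worker-private site. Of all sites, 1.64% were queen-private and 8.85% worker-private. The genes with the highest counts of queen-private sites were 2 overlapping genes in the LG3 window described above. The lncRNA gene LOC100577216 had 11 of 35 sites and the protein-coding gene LOC409422 had 8 of 26. At equal list length these had 5 of 25 and 3 of 15. The next were LOC725024 (LG9) with 6 of 103, LOC724333 (LG10) with 5 of 57 and LOC408822 (LG5) with 4 of 117. LOC408788, LOC102655707 and LOC113218862 had 3 each, of 12, 10 and 38 sites. Genes with most worker-private sites were long. LOC725329 on LG7, which spans 788097 bp, had 20 of 209 sites, near the share of all sites. LOC724344 (LG3), LOC410732 (LG1) and LOC411157 (LG6) had 17 each, of 134, 129 and 93 sites. LOC413503 (LG3) had 15 of 91 and LOC551123 (LG2) 14 of 117. LOC408618 (LG1) and LOC102655706 (LG2) had 13 each, of 100 and 67. At equal list length LOC725329 had 4 queen-private and 7 worker-private sites of 158. LOC724344 had 3 and 4 of 105, and LOC102655706 had 0 and 8 of 54. Of all sites at that length, 4.12% were queen-private and 4.77% worker-private.

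By kind of gene, queen-private sites touched 5.29% of protein-coding genes, 4.97% of lncRNA genes, 1.27% of microRNA genes and 8.72% of tRNA genes (17 of 195). Worker-private sites touched 24.2%, 23.8%, 10.2% and 22.1%, in the same order. At equal list length the castes were closer and their order was not the same for every kind: 11.1% of protein-coding genes had a queen-private site and 14.9% a worker-private site, against 15.9% and 11.3% of tRNA genes and 4.24% and 3.39% of microRNA genes. Transfer RNA genes are transcribed by RNA polymerase III from promoters inside the gene. Within 200 bp of a tRNA gene lay 6 of 695 queen-private sites (0.863%, 95% Wilson interval 0.396 to 1.87), 10 of 4501 worker-private sites (0.222%, 0.121 to 0.409) and 0.367% of shared sites. At equal length the intervals of the castes overlapped widely (0.384 to 1.23 for queens and 0.204 to 0.791 for workers).

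Genes of hormone and growth signalling, which link larval diet to caste, were read from lists matched by symbol. In the ecdysone and juvenile hormone list 7 of 19 names were matched, with 205 sites, of which none was queen-private and 18 (8.78%) were worker-private, a share near the 8.85% of all sites. E74, an early transcription factor of the ecdysone response, had 9 of them. The nuclear receptor gene E75 had 4. Ecr and Usp, which encode the partners of the ecdysone receptor, had 2 each, and Kr-h1, the early response gene to juvenile hormone, had 1. At equal length the list had 8 queen-private and 3 worker-private sites of 156. Its order thus turned round with list length. Among its 104 shared sites queens ranked above workers at 21 (20.2%) and below at 24 (23.1%) without overlap, near the 21.5% and 21.0% of all shared sites, and the median difference of queens over workers was −1.83 percentile points. At Ecr, 4 of 29 shared sites ranked higher in both queen libraries and 11 in both worker libraries. No shared site of the list passed the threshold (lowest adjusted p = 0.227, at E74).

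Mad, which encodes the transcription factor that carries BMP signals to the nucleus, was the only match of 11 names in its list. Of its 85 sites none was queen-private and 12 (14.1%) were worker-private. At equal length it had 1 queen-private site and 8 worker-private sites of 66, against 4.12% queen-private and 4.77% worker-private of all sites at that length. Of its shared sites, 7 of 23 (30.4%) ranked higher in both queen libraries and 2 (8.7%) in both worker libraries, against 21.5% and 21.0% of all shared sites. The median difference was 0.48 percentile points, and none passed the threshold (lowest adjusted p = 0.364). Of the factors of the regulatory network that the study examined, Mad, Ecr and Usp were matched of 13 names, with none queen-private and 16 worker-private of 170 sites (9.41%, near the 8.85% of all sites), and 3 and 8 of 133 at equal length. Of insulin signalling genes, the insulin receptor gene InR-2 had 1 queen-private and 6 worker-private sites of 26, and 1 and 0 of 17 at equal length. The list had 1 and 6 of 31 sites (3.23% and 19.4%), against 1.64% and 8.85% of all sites. The insulin-like peptide gene ILP-2 had none.

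Genes of biogenic amine signalling, which modulates movement, reward and social behaviour in insects, were matched for 11 of 15 names. They had 3 queen-private and 16 worker-private sites of 114 (2.63% and 14.0%), against 1.64% and 8.85% of all sites. At equal length they had 2 and 11 of 90, against 4.12% and 4.77% of all sites. The worker-private sites were at 7 genes. Of the dopamine receptor genes, Dop3 had 4, Dop1 had 3 and DopR2 had 2. The tyramine receptor gene TyrR had 2 queen-private and 3 worker-private sites. Of the serotonin receptor genes, 5-ht7 had 2 worker-private sites, 5-HT1 and 5-HT2alpha had 1 each, and 5-HT2beta had 1 queen-private site. None of the 31 shared sites of the list passed the threshold (lowest adjusted p = 0.318).

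The remaining lists had few private sites. Of all sites, 1.64% were queen-private and 8.85% worker-private, or 4.12% and 4.77% at equal length. Of learning and foraging genes, the kinase gene Camkii had 4 worker-private sites, the cGMP-dependent kinase gene For had 2 and Nmdar1 had 1. The list had 7 worker-private sites of 73 (9.59%, near the share of all sites) and none queen-private. At equal length the list had 3 queen-private and 2 worker-private sites of 61. Dnmt3, a DNA methyltransferase whose knockdown in larvae yields queen-like bees, had 2 worker-private sites of 6 in the full lists and 2 queen-private sites of 4 at equal length. The clock gene Per had 2 worker-private sites under both settings. Of the 3 neuropeptide genes matched none had a private site in the full lists. Of the tissue markers, brp had 1 queen-private site, Syt1 and Para had 2 worker-private sites each, TpnT had 1 queen-private site, and 1 queen-private site lay within 2 kb of both Hex70a and HEX70b, which encode storage proteins. The neuron list had 1 queen-private and 4 worker-private sites of 98 (1.02% and 4.08%), and 5 and 2 of 75 at equal length.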

How the data were processed

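Per the submitters' notes and the study's methods, the authors aligned reads with BWA v0.7.17 against Amel HAv3.1, retained the fragments no longer than 100 bp and ran MACS2 separately on every library. The treatment of duplicates is not given in the sources used here. The deposited lists give a fold enrichment (a ratio), p-values and q-values as −log10 with q at most 0.01, and a summit position. Summit fragments and local background were recovered from fold and p-value, and 100% of pileups came out whole (tolerance 5% of a step).

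Peaks were merged, and a site took the highest value of a list. Ranks of fold among shared sites were converted to normal scores and tested with limma v3.58.1 (R v4.3.3), with the spread modelled on the mean score. Methods were tested on simulated data. Genes came from a RefSeq table of the same assembly. Its linkage groups were matched to the sequence names in order: the density of sites at gene ends was at least 4.77 times uniform for this pairing and at most 1.46 times for any other.

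Shared sites named were the 10 a side with the largest score difference among those past the threshold, or among the smallest p where fewer passed. Named too were the 6 best-ranked private sites, the 8 genes and 3 windows with most private sites and the 2 highest and lowest chromosomes per caste, plus list members with a private site. The classes and lists were chosen with earlier results of these data known. Alternatives were equal list length, ranking by −log10 q, a −log10 q of at least 5, an overlap of 50 bp, joined gaps of 100 bp, leaving out each library, other scalings and a replicate block. Summits of at least 12 fragments and the 16 chromosomes alone were added after the data were seen.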

Additional observations from a re-analysis of the deposited data

How the results depend on the processing

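Sites called higher in queens numbered 16 and ranged from 17 to 68 with 1 library left out, against 5 and 0 to 120 for sites higher in workers. Queen calls numbered 75 when ranked by −log10 q, 9 when ranked among all peaks of a list, 31 on quantile-normalised log2 fold and 41 with a replicate block. Worker calls numbered 11 by −log10 q, 9 at a −log10 q of at least 5, 14 on quantile-normalised log2 fold, 27 with a replicate block, 8 at summits of at least 12 fragments and 2 on the 16 chromosomes only. The replicate numbers did not pair the samples: deviations of same-numbered libraries correlated at 0.00807, so the block is given only here. Of 263 values of the 20 named sites under alternatives, 213 kept their side of the threshold, 19 lost the call, 31 gained it and 0 reversed. Private sites at equal list length numbered 1737 in queens and 2013 in workers, and at 12 fragments or more 2711 in workers. Leaving out a library gave 1544 to 3755 in queens and 6486 to 11320 in workers. The median percentile of queen-private sites was 25.5 at equal length, 28.5 at a −log10 q of at least 5, 32.4 at 12 fragments or more and 19.7 to 32.3 with a library left out, and that of worker-private sites was 29.5, 28.3 at 12 fragments or more and 24.6 to 35.8. Unplaced scaffolds held 7.89% of queen-private sites at equal length, 14.7% at 12 fragments or more and 8.58% to 11.98% with a library left out. The highest over the lowest queen-private share of a chromosome ranged from 1.37 to 1.88 with a library left out. The gene-end share of private sites, queens minus workers, reversed to −2.35 points at equal length. The cause was not tested, apart from the list lengths that each alternative sets. Without reads, a site missing from a list may lie just under its call threshold.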

Other observations

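The following values were read after the data were seen. In the first 100 kb of the 16 chromosomes, 26 of 320 sites (8.13%) were queen-private and 18 (5.63%) worker-private. Over the whole of the 16 chromosomes the shares were 1.38% and 8.94%. Without LG3, queen-private sites in the first 100 kb were 12 of 279 (4.30%). The 26 queen-private sites lay on 8 chromosomes. Of the 14 queen-private sites at the start of LG3, 7 were called in no drone list and 2 in both, whereas none of the 10 in the LG9 stretch was called in a drone list. On LG10 (1100001 to 1200000) 4 of 5 were called in no drone list, against 55.2% of all queen-private sites.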
